A study of Mus musculus with 12 samples.

Results

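The stellate cell fraction of the liver was compared between mice injured with carbon tetrachloride (CCl4) and mice given oil. The members are the 6 libraries of that fraction among the 12 of the series, 3 labelled F-HSC (fibrotic) and 3 labelled Q-HSC (quiescent), chosen by their labels alone. The other 6 libraries, F-SEC and Q-SEC, come from the sinusoidal endothelial cell (SEC) fraction and appear only where a difference from it is given. Bulk RNA-seq was made from freshly isolated cells of male C57BL/6 mice. F-HSC mice were injected into the peritoneum with CCl4, a liver toxin, at 0.6 µl per g body weight, 15% in olive oil, 2 times a week for 6 weeks. Q-HSC mice received olive oil. Mice of both groups were 6 to 8 weeks old at the start and carry an age label of 12 to 14 weeks. No transgene or deletion is named for these libraries. Whether each library stands for a different mouse is not given in the labels, and p-values then describe only the scatter among these libraries, part of which may be technical.

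Hepatic stellate cells are the pericytes of the liver sinusoid. At rest they store vitamin A as retinyl esters in lipid droplets, and after injury they activate into contractile myofibroblasts that lay down fibrillar collagen. Their lipid makes them buoyant, and the study collected them at the upper interface of a density gradient without an antibody step, so other liver cells can enter the fraction. In such bulk libraries, more or fewer cells of a type and more or less RNA per cell cannot be told apart.

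Gene counts summed to between 9570157 and 13068564 in the F-HSC libraries and between 8714228 and 9353101 in the Q-HSC libraries. At these depths 3 counts in a library, taken as the detection floor, correspond to 0.229 to 0.335 CPM (gene counts scaled to a common TMM-adjusted library size). Floors and intervals cover counting error only. CPM values below are always given for libraries 1, 2 and 3 of a group in that order. Changes are log2 fold changes, F-HSC over Q-HSC, ± SE, with adjusted p-values of the quasi-likelihood test in edgeR, corrected over the 14489 genes tested of the 23472 gene entries in the table.

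The fraction was a mixture in both groups, as the plot of marker lists by library shows. Summed over 18 stellate identity genes, the libraries held 1757, 2731 and 2537 CPM in F-HSC, against 4628, 1260.2 and 981 CPM in Q-HSC. Q-HSC.1 was the highest of the 6, so the groups overlapped, and all 18 genes were detected in these libraries. The same 18 genes summed to more in the endothelial fraction of injured mice, with 3444, 5736 and 6126 CPM in F-SEC, against 3856, 616 and 502 CPM in Q-SEC. Kupffer cell and macrophage markers, 18 genes, summed to 15627, 6943 and 6883 CPM in F-HSC, against 10144, 13507 and 28580 CPM in Q-HSC and also overlapped. Monocyte and scar-associated macrophage markers, 20 genes, stood at 22991, 6597 and 12137 CPM in F-HSC, against 1395, 2354 and 3009.8 CPM in Q-HSC. Every F-HSC library lay above every Q-HSC library for that list, and F-HSC.1 was the highest by far. Fn1 (fibronectin), which hepatocytes also make, held 1739.8, 2663 and 5258 CPM of these sums in F-HSC, against 278, 378 and 213 CPM in Q-HSC.

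The 32 hepatocyte markers summed to 20194, 34426 and 48614 CPM in F-HSC, against 7695, 16448 and 7315 CPM in Q-HSC, without overlap. Alb (albumin) carried the gap, and without it F-HSC.1 (13132 CPM) lay just below Q-HSC.2 (13177 CPM), so the other 31 genes overlapped, as did the mean log2 level of the list. LSEC-associated genes, 26 in all, went the other way at 9262, 8424 and 5761 CPM in F-HSC, against 27513, 18318 and 17971 CPM in Q-HSC. Cholangiocyte markers, most of whose sum in F-HSC was Spp1, a gene that scar-associated macrophages share, summed to 1661, 829 and 2081 CPM in F-HSC, against 152, 441 and 233 CPM in Q-HSC and T and NK cell markers to 64.99, 358 and 116 CPM in F-HSC, against 1172, 808 and 343 CPM in Q-HSC. Without Spp1 the cholangiocyte sums were 123, 199.6 and 240.4 CPM in F-HSC, against 83.3, 144 and 97.8 CPM in Q-HSC and overlapped, and the T and NK cell sums overlapped too, F-HSC.2 lying above Q-HSC.3. Portal fibroblast markers summed to 490, 541 and 643 CPM in F-HSC, against 217, 159 and 74.9 CPM in Q-HSC. Mesothelial markers summed to 212, 291 and 525 CPM in F-HSC, against 67.7, 82.6 and 42.0 CPM in Q-HSC. Krt18, a keratin that hepatocytes and bile ducts share, held 139, 189 and 378 CPM of the F-HSC mesothelial sums. Dendritic cell markers summed to 704, 533 and 487 CPM in F-HSC, against 966, 1268 and 1019.7 CPM in Q-HSC. The same markers summed to 925, 709 and 575 CPM in F-SEC, against 914, 833 and 822 CPM in Q-SEC. Scar-associated macrophage, portal fibroblast and mesothelial sums were thus higher in F-HSC without overlap. Endothelial, dendritic cell and erythroid sums were lower in F-HSC without overlap. The hepatocyte sum with albumin and the cholangiocyte sum with Spp1 did not overlap either. These differences stand beside every result given here. Their part in any single change was not tested beyond the covariate fits and the ratios within libraries described further on.

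**Figure D1:**
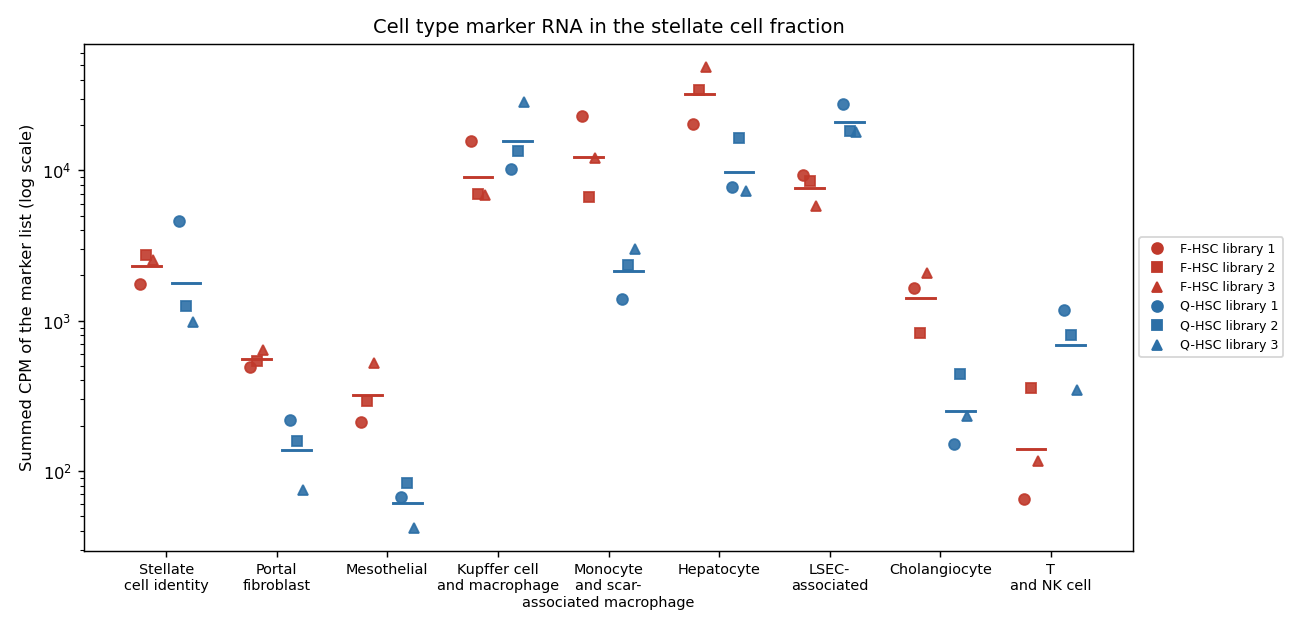
Summed CPM (log scale) of 9 cell type marker lists in each library of the stellate cell fraction, F-HSC in red and Q-HSC in blue, with the library number given by the symbol and the geometric mean by a bar. Hepatocyte markers lay between 20194 and 48614 CPM in F-HSC and between 7315 and 16448 CPM in Q-HSC, while stellate identity markers overlapped because Q-HSC.1 stood at 4628 CPM.

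Of 14489 genes tested, 4680 (32.3%) were called at an adjusted p under 0.05, with 2127 (14.7%) higher and 2553 (17.6%) lower in F-HSC. For 6666 genes (46.0%) the CPM of the groups did not overlap, 20.7% of all genes being higher and 25.3% lower in F-HSC. List members named by low adjusted p were chosen in this same comparison, so their separation follows largely from that choice. The median log2 fold change over all genes tested was -0.02. With the mean levels of the macrophage and hepatocyte lists as covariates 3304 genes were called, of which 2879 were among the 4680 and had the same direction. Fewer were called without F-HSC.3 (2612), without Q-HSC.3 (3092), with the macrophage covariate alone (2899) or by a test against a 2-fold change (503). In no alternative was a gene of the 4680 called in the opposite direction. Of 175 genes named by rule, 161 were called, a number set by the rule, which took most genes because they were called. Of these, 121 kept their call when any 1 of the 6 libraries was left out. They were mostly picked for a low adjusted p or a large change. Of all calls, between 55.1% (without F-HSC.3) and 77.4% (without F-HSC.1) were kept when 1 library was left out.

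The largest rise was that of Gpnmb, a lysosomal membrane glycoprotein of lipid-laden and scar-associated macrophages (mm10 chromosome 6, 49036518 to 49058182). It measured 6674, 455 and 933 CPM in F-HSC, against 6.36, 4.78 and 6.596 CPM in Q-HSC, a change of 8.82 ± 1.07 (adjusted p = 0.0007). F-HSC.1 exceeded the other 2 F-HSC libraries several-fold, and the lowest F-HSC library was still far above every Q-HSC library. Other macrophage genes among the 12 largest rises were Atp6v0d2, a subunit of the proton pump of lysosomes and osteoclasts, at 286, 32.2 and 56.1 CPM in F-HSC, against 0.8804, 0.8699 and 0.671 CPM in Q-HSC (7.25 ± 1.03), and Mmp12, macrophage elastase, at 1642, 139.8 and 402 CPM in F-HSC, against 13.2, 3.04 and 4.81 CPM in Q-HSC (6.68 ± 1.11). Both again peaked in F-HSC.1. Matrix genes among them were Fbn2, a microfibril fibrillin, Ltbp2, a microfibril-associated protein, Col12a1, a fibril-associated collagen, and Col1a1, a chain of type I collagen.

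Fbn2 stood at 47.8, 35.4 and 37.6 CPM in F-HSC, against 0.685, 0 and 0 CPM in Q-HSC. Its change of 7.29 ± 0.73 grew to 11.69 without Q-HSC.1, the only Q-HSC library with a count for it, so the fitted value is no measure of size. Ltbp2 measured 273, 146 and 211 CPM in F-HSC, against 3.03, 1.96 and 0.335 CPM in Q-HSC (6.85 ± 0.57, adjusted p = 0.00021). Groups without overlap were a condition for naming the largest rises. For both genes the F-HSC libraries agreed within 2-fold of each other. Afp, the fetal albumin of liver progenitors and regenerating hepatocytes, reached 33.5, 46.7 and 149 CPM in F-HSC, against 1.17, 0.435 and 0.559 CPM in Q-HSC (6.68 ± 0.77). Cdh17, the liver-intestine cadherin, was at 18.9, 12.3 and 52.7 CPM in F-HSC, against 0.978, 0.109 and 0.335 CPM in Q-HSC (5.81 ± 0.80), and Nts, the peptide neurotensin, at 7.54, 46.6 and 68.3 CPM in F-HSC, against 0.391, 0.326 and 0.112 CPM in Q-HSC (7.12 ± 0.94). These were highest in F-HSC.3, the library with the most hepatocyte RNA. In the endothelial fraction Nts measured 56.4, 27.3 and 52.7 CPM in F-SEC, against 2.23, 0.628 and 1.40 CPM in Q-SEC (4.99 ± 0.77, adjusted p = 0.0023). Hepatocyte markers summed to 4728, 3954 and 5592 CPM in those F-SEC libraries. Afp and Cdh17 reached at most 2.79 and 0.722 CPM in F-SEC. The cell source of these genes was not tested.

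Sprr1a, a small proline-rich protein of stressed epithelia, gave 785 counts over the F-HSC libraries against 2 over the Q-HSC libraries, a ratio of 336 with an exact 95% counting interval of 92.6 to 2777. D030025P21Rik, which carries no name beyond its symbol, gave 707 against 3 counts, a ratio of 202 (68.7 to 979.9). Both were counted in every F-HSC library and in 2 of 3 Q-HSC libraries. D030025P21Rik (chromosome 12, 84875802 to 84879755, plus strand) overlaps Ltbp2 (84783212 to 84876495, minus strand). The use of strand is not given, so its counts may include reads of Ltbp2 and its rise may not be separate.

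Among the 12 largest falls were 3 major urinary protein genes, which encode pheromone carriers made by hepatocytes of male mice. Mup11 gave 1 count in F-HSC against 560 in Q-HSC, a ratio of Q-HSC over F-HSC of 655 (117 to 25903), and Mup17 gave 3 in F-HSC against 692 in Q-HSC, a ratio of 270 (91.9 to 1311). Mup7 measured 3.200, 0.549 and 0.1099 CPM in F-HSC, against 8.804, 137 and 62.05 CPM in Q-HSC (-5.63 ± 1.39, adjusted p = 0.012). These genes are near-identical copies between which reads can be split, so each single value is uncertain, and limma-voom did not call Mup11 (adjusted p = 0.062) or Mup7 (0.13). Elovl3, a fatty acid elongase, fell to 1.07, 0.183 and 0.1099 CPM in F-HSC, against 56.1, 14.1 and 7.603 CPM in Q-HSC (-5.69 ± 1.05, adjusted p = 0.0035), and Slco1a1, an organic anion transporter of hepatocytes, to 3.43, 0.6402 and 2.64 CPM in F-HSC, against 20.6, 26.6 and 8.83 CPM in Q-HSC (-3.05 ± 0.66). All of these are hepatocyte genes that fell in libraries whose hepatocyte marker sum was higher. Gm2083 (-8.20 ± 1.11) and Gm3893 (-7.68 ± 1.38, not called by limma-voom, adjusted p = 0.13), which carry no name beyond their symbols, were also among the largest falls. The Gm2083 entry (chromosome 4, 60658466 to 61782223, minus strand) starts at the same base as Mup11 and spans Mup17. Its counts may share reads with these genes, so its fall may not be separate from theirs.

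Cd163, the haemoglobin scavenger receptor of resident macrophages, fell to 64.2, 15.5 and 13.2 CPM in F-HSC, against 311, 554 and 1671 CPM in Q-HSC (-4.76 ± 0.88, adjusted p = 0.0036). Cxcl13, a B cell-attracting chemokine, was at 4.495, 3.11 and 3.52 CPM in F-HSC, against 77.9, 43.7 and 138 CPM in Q-HSC (-4.53 ± 0.63). Gbp2b, an interferon-induced guanylate-binding protein, stood at 2.21, 10.97 and 1.65 CPM in F-HSC, against 57.6, 93.5 and 154 CPM in Q-HSC (-4.35 ± 0.91), a call that just ended with the macrophage covariate alone (adjusted p = 0.051). Hhip, the decoy receptor of hedgehog ligands, fell to 1.22, 2.29 and 1.65 CPM in F-HSC, against 40.9, 23.9 and 16.5 CPM in Q-HSC (-3.98 ± 0.89, adjusted p = 0.0082), and Adam33, a mesenchymal metalloprotease, to 2.67, 2.84 and 3.19 CPM in F-HSC, against 13.1, 26.1 and 34.4 CPM in Q-HSC (-3.08 ± 0.69, adjusted p = 0.0079). Groups without overlap were a condition for naming these genes among the largest falls.

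Promoters of the 12 largest rises were read from RefSeq (GRCm38.p6, 250 bases before to 50 after the start), where 7 of the 12 genes had an entry. The AP-1 element TGACTCA, which is bound by Fos and Jun dimers, was searched for on both strands (as TGACTCA or TGAGTCA) after the values were seen. It was present in Gpnmb, Sprr1a, Nts and Mmp12, 4 of 7, and in 0 of the 8 largest falls with an entry. It was found in 126 of 1575 genes called higher, in 77 of 1875 called lower (4.11%), in 5.02% of all 10663 tested genes with an entry and in 5.20% of all promoters in the table. The windows that carry it are shown 5′ to 3′ on the strand of the gene, with each element in capitals, because these genes are among the largest rises. A match is a description of the letters and no measurement of binding.
Gpnmb: ccaggggcaagTGACTCAtgagcacgagtt
Sprr1a: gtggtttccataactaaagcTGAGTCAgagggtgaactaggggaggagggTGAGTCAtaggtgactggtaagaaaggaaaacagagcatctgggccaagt
Nts: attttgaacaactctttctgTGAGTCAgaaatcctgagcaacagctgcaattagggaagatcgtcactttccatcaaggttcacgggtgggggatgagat
Mmp12: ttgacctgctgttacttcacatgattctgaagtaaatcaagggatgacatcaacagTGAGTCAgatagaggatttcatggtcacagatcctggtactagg
These stretches lie at chr6:49036515-49036544 (plus strand), chr3:92485948-92486047 (minus), chr10:102490546-102490645 (minus) and chr9:7347274-7347373 (plus). Counted from the start of the gene, the first base of the first element sat at 9 in Gpnmb, inside the transcript, and at -146 in Sprr1a, -207 in Nts and -44 in Mmp12.

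Fibrillar and interstitial matrix genes formed the list with the highest median. Of 34 tested, 24 were higher and 0 lower in F-HSC, beside 14.7% and 17.6% of all genes, and the median was 2.50. The counts of every list below stand beside these same shares. Col1a1 measured 3143, 924 and 3109.7 CPM in F-HSC, against 80.3, 24.8 and 13.2 CPM in Q-HSC (5.92 ± 0.97, adjusted p = 0.0022). Its partner chain Col1a2 was at 2924, 1051 and 2822 CPM in F-HSC, against 181, 43.4 and 32.4 CPM in Q-HSC (4.72 ± 1.13), and Col3a1, which forms mixed fibrils with type I collagen, at 3699.5, 1871 and 4043 CPM in F-HSC, against 316, 93.8 and 52.4 CPM in Q-HSC (4.38 ± 0.997). For all 3 the F-HSC libraries lay above the Q-HSC libraries, F-HSC.2 was the lowest F-HSC library, and Q-HSC.1 the highest Q-HSC library, as it was for stellate identity genes. Without Q-HSC.1 the median of the list was 3.45.

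Col5a2, a chain of the fibril-nucleating type V collagen, changed by 3.42 ± 0.43, and Col12a1 was at 97.1, 29.1 and 86.7 CPM in F-HSC, against 1.17, 0.979 and 0.224 CPM in Q-HSC (6.44 ± 0.75). Thbs1, thrombospondin 1, which activates latent TGF-β, measured 126, 144 and 209 CPM in F-HSC, against 11.9, 9.46 and 16.4 CPM in Q-HSC (3.66 ± 0.32, adjusted p = 0.00021). The Q-HSC libraries differed little for this gene, unlike the collagens. Fn1, fibronectin, was at 1739.8, 2663 and 5258 CPM in F-HSC, against 278, 378 and 213 CPM in Q-HSC (3.48 ± 0.51) and highest in F-HSC.3; hepatocytes and macrophages also make it. Tnc, the injury-induced tenascin C, changed by 4.94, and the elastic fibre genes Eln and Mfap2 by 3.36 ± 0.46 and 3.16 ± 0.41. The other members called higher were Col5a1, Col5a3, Col6a1, Col6a2, Col6a3, Col16a1, Fbn1, Fbln1, Fbln2, Fbln5, Mfap4, Fmod, Thbs2 and Vcan, with changes from 1.86 for Fbln1 to 4.27 for Mfap4.

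Enzymes that crosslink and remodel matrix included 17 genes that rose and 0 that fell among 28 tested (median 1.81). Lox, lysyl oxidase, which crosslinks collagen, measured 50.9, 34.4 and 58.02 CPM in F-HSC, against 2.25, 1.196 and 0.671 CPM in Q-HSC (5.09 ± 0.47, adjusted p = 0.00026). Its relatives Loxl1 and Loxl2 changed by 3.22 and 1.69, and the collagen hydroxylase Plod2 by 2.17. Timp1, the inhibitor of matrix metalloproteinases, was at 13.03, 10.2 and 30.1 CPM in F-HSC, against 1.47, 0.761 and 0.559 CPM in Q-HSC (4.22 ± 0.67, adjusted p = 0.002). Proteases rose beside their inhibitor.

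Mmp13, the main interstitial collagenase of the mouse, stood at 66.6, 44.3 and 42.2 CPM in F-HSC, against 3.52, 1.63 and 2.35 CPM in Q-HSC (4.34 ± 0.46, adjusted p = 0.00046). Mmp23, a membrane-anchored metalloproteinase, was at 17.8, 11.98 and 17.1 CPM in F-HSC, against 3.03, 2.72 and 2.01 CPM in Q-HSC (2.58 ± 0.26) and Mmp19 at 91.8, 64.7 and 83.1 CPM in F-HSC, against 20.1, 20.9 and 23.6 CPM in Q-HSC (1.89 ± 0.21). In these 3 genes the libraries of a group lay close together compared with the gap between the groups. Mmp2, the gelatinase of activated stellate cells, changed by 3.10 and its activator Mmp14 by 1.12.

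Basement membrane genes rose for 9 of 20, with 1 lower and a median of 1.03, beside 14.7% of all genes called higher. Col15a1, a vessel-associated collagen, measured 111, 38.8 and 172 CPM in F-HSC, against 6.36, 4.68 and 3.24 CPM in Q-HSC (4.49 ± 0.75). Col4a5, a minor type IV chain, was at 56.6, 39.2 and 55.7 CPM in F-HSC, against 2.45, 7.94 and 3.13 CPM in Q-HSC (3.49 ± 0.56) and Col8a1, a network-forming collagen of vessel walls, at 22.02, 10.97 and 20.3 CPM in F-HSC, against 1.76, 2.17 and 1.12 CPM in Q-HSC (3.39 ± 0.48). The major chains Col4a1 and Col4a2 changed less, by 1.45 and 1.52. Lama4, the laminin chain of endothelium and muscle, was the member that fell, to 56.1, 75.9 and 69.4 CPM in F-HSC, against 158, 123 and 97.4 CPM in Q-HSC (-0.91 ± 0.19, and -0.54 with only libraries 2 and 3).

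Contractile and cytoskeletal genes, which mark the myofibroblast, rose for 12 of 24 with 0 lower and a median of 1.08. Of all genes, 14.7% were called higher. Acta2, α-smooth muscle actin, measured 158, 31.9 and 115 CPM in F-HSC, against 8.804, 1.41 and 0.783 CPM in Q-HSC (4.76 ± 1.02, adjusted p = 0.0068). F-HSC.2 held the least of the 3 F-HSC libraries and Q-HSC.1 the most of the Q-HSC libraries, and the groups did not overlap. Tagln, the actin-binding transgelin, was at 172, 72.8 and 197 CPM in F-HSC, against 26.1, 9.35 and 9.06 CPM in Q-HSC (3.30 ± 0.68, adjusted p = 0.0055). The smooth muscle genes Myh11, Tpm2 and Lmod1 changed by 2.43, 3.04 and 3.15.

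Widely expressed cytoskeletal genes changed less. Vim, vimentin, measured 1331, 498 and 657 CPM in F-HSC, against 343, 297 and 299 CPM in Q-HSC (1.41 ± 0.33, adjusted p = 0.0099), Myh10, non-muscle myosin IIB, 121, 96.9 and 151 CPM in F-HSC, against 40.98, 39.7 and 39.1 CPM in Q-HSC (1.62 ± 0.23) and Tpm1, a tropomyosin, 219, 149 and 221 CPM in F-HSC, against 72.9, 47.95 and 37.7 CPM in Q-HSC (1.89 ± 0.32). Q-HSC libraries were nearly equal for vimentin and Myh10. Pdlim7, which docks to actin filaments, changed by 0.91 ± 0.17.

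**Figure D2:**
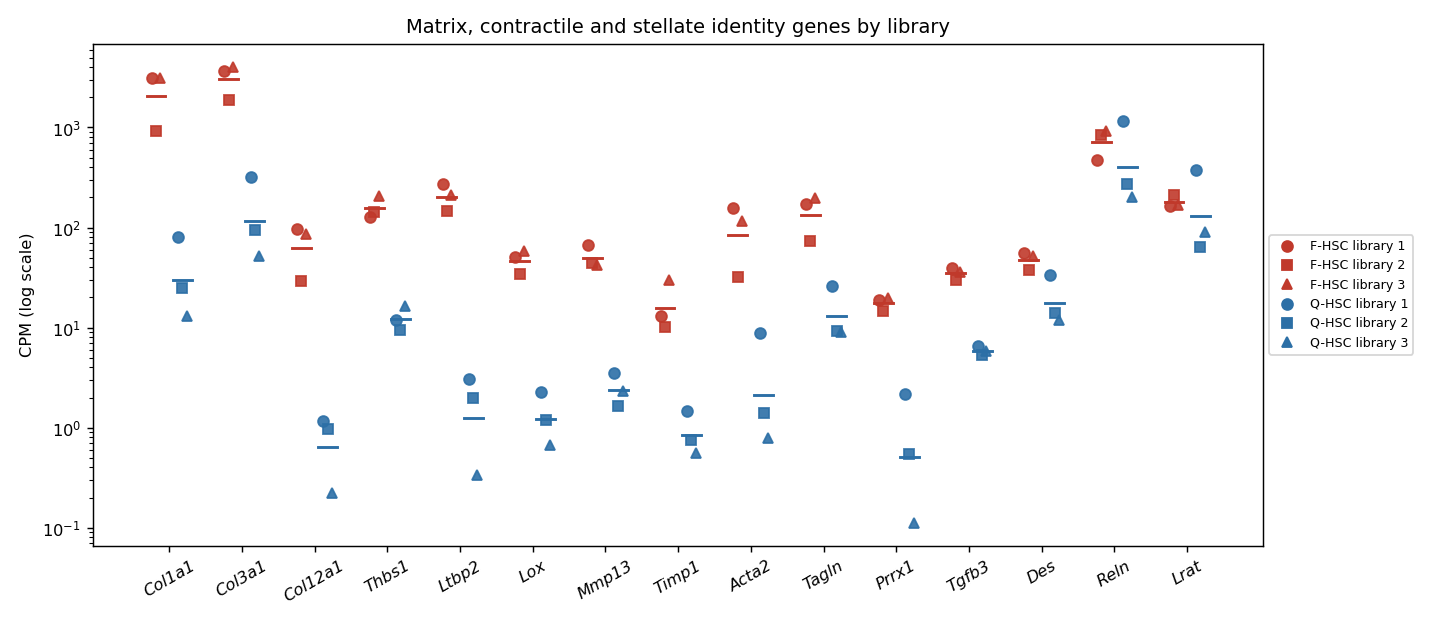
CPM (log scale) of 15 matrix, contractile, signalling and stellate identity genes in each library, F-HSC in red left of Q-HSC in blue, with the library number given by the symbol and the geometric mean by a bar. Col1a1 lay between 924 and 3143 CPM in F-HSC and between 13.2 and 80.3 CPM in Q-HSC, while Lrat and Reln overlapped because Q-HSC.1 was the highest library for both.

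The genes that define stellate identity gave another picture. Of 18 tested, 1 was called, beside 32.3% of all genes, and the median change was 0.47. Lrat, which makes retinyl esters, measured 164, 211 and 167 CPM in F-HSC, against 377, 63.6 and 91.1 CPM in Q-HSC (0.03 ± 0.87, adjusted p = 0.98). Reln, reelin, was at 475, 841 and 929 CPM in F-HSC, against 1166, 275 and 200.1 CPM in Q-HSC (0.45 ± 1.05, adjusted p = 0.77), and Lhx2, a transcription factor that keeps stellate cells quiescent, at 22.9, 36.04 and 28.5 CPM in F-HSC, against 35.2, 12.1 and 10.7 CPM in Q-HSC (0.59 ± 0.85, adjusted p = 0.63). In all 3 genes Q-HSC.1 stood apart from Q-HSC.2 and Q-HSC.3, and its level set the overlap of the groups.

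Des, the muscle-type filament desmin, was the member called, at 55.8, 37.8 and 52.3 CPM in F-HSC, against 33.6, 14.03 and 11.96 CPM in Q-HSC (1.29 ± 0.37, adjusted p = 0.023). This call ended without F-HSC.3, Q-HSC.2 or Q-HSC.3 (adjusted p = 0.065 to 0.073), and the change was 1.95 without Q-HSC.1. With only libraries 2 and 3 of every group, 13 of the 18 genes were called higher, with a median of 1.58, beside 22.3% of all genes in that fit, and without Q-HSC.1 alone the median was 1.36 with 1 called. The count for this list therefore depends on the libraries numbered 1. Pdgfrb and Pdgfra, the PDGF receptors of mesenchymal cells, measured 184, 201 and 224 CPM in F-HSC, against 74.3, 24.8 and 18.3 CPM in Q-HSC (2.37 ± 0.97, adjusted p = 0.082) and 136, 159 and 168 CPM in F-HSC, against 66.4, 25.8 and 16.8 CPM in Q-HSC (2.08 ± 0.86, adjusted p = 0.086). Neither overlapped between the groups, and both were called with the covariates (adjusted p = 0.022 and 0.034).

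Retinoid storage and metabolism genes included 9 genes that rose and 1 that fell among 21 tested (median 0.84, 47.6% called beside 32.3% of all genes). Several of these are also hepatocyte or macrophage genes. Rbp4, the plasma retinol carrier secreted by hepatocytes, measured 222, 629 and 765 CPM in F-HSC, against 92.6, 118 and 40.8 CPM in Q-HSC (2.68 ± 0.53, and 1.67 with the covariates). Aldh1a1, which makes retinoic acid, was at 207, 486 and 613 CPM in F-HSC, against 128, 95.7 and 47.96 CPM in Q-HSC (2.26 ± 0.42), and Plin2, the lipid droplet coat protein, at 1184, 403 and 628 CPM in F-HSC, against 151, 228 and 283 CPM in Q-HSC (1.75 ± 0.35, and 1.07 with only libraries 2 and 3). F-HSC.1 was the lowest F-HSC library for Rbp4 and Aldh1a1, as it was for the hepatocyte sum.

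Aldh1a2, the retinoic acid-making enzyme of mesothelium, stood at 5.105, 10.2 and 22.9 CPM in F-HSC, against 1.76, 1.196 and 1.23 CPM in Q-HSC (3.16 ± 0.66), and was not called with the covariates (adjusted p = 0.11). Pnpla3, a lipase that releases retinol, was the member that fell, 0.686, 0.823 and 0.4395 CPM in F-HSC, against 1.96, 1.85 and 1.901 CPM in Q-HSC (-1.52 ± 0.38), a call that ended without F-HSC.3 (adjusted p = 0.056).

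Mesenchymal receptors and transcription factors included 7 genes that rose and 3 that fell among 26 tested (median 0.74). The share called was 38.5%, close to the 32.3% of all genes. Prrx1, a homeobox factor of fibroblasts, measured 18.8, 14.8 and 19.9 CPM in F-HSC, against 2.15, 0.544 and 0.112 CPM in Q-HSC (4.19 ± 0.59, adjusted p = 0.0013), and Cdh11, the cadherin of fibroblasts, 9.52, 13.4 and 28.8 CPM in F-HSC, against 2.25, 2.83 and 1.79 CPM in Q-HSC (2.90 ± 0.48). Pdgfa, a ligand of the PDGF receptors, was at 13.9, 11.9 and 10.3 CPM in F-HSC, against 4.597, 3.81 and 5.48 CPM in Q-HSC (1.38 ± 0.25). Zeb1, a repressor of epithelial genes, fell to 53.2, 73.2 and 52.6 CPM in F-HSC, against 159, 126 and 104 CPM in Q-HSC (-1.12 ± 0.19, adjusted p = 0.0023). A further pair of factors of the epithelial-mesenchymal group were called lower, Twist1 (-1.43 ± 0.36), whose call ended without F-HSC.3 or Q-HSC.1 (adjusted p = 0.056 for both), and Runx2 (-1.43 ± 0.46), whose call ended when any 1 library was left out (adjusted p = 0.051 to 0.13).

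Ligands, latent binding proteins and receptors of the TGF-β family were called in both directions, 9 of 29 higher and 6 lower, with a median of 0.07. The share called was 51.7%, beside 32.3% of all genes. Among ligands, Tgfb1 measured 278, 114 and 119 CPM in F-HSC, against 193, 174 and 179.9 CPM in Q-HSC (-0.10 ± 0.30, adjusted p = 0.83), with F-HSC.1 the highest library and the other 2 F-HSC libraries the lowest. Its direction changed without F-HSC.2 or F-HSC.3 and with the covariates, and it was called lower without F-HSC.1 (-0.59, adjusted p = 0.034) or with only libraries 2 and 3 (-0.54, adjusted p = 0.019). Tgfb3 was at 39.4, 29.9 and 36.4 CPM in F-HSC, against 6.55, 5.33 and 5.81 CPM in Q-HSC (2.57 ± 0.20, adjusted p = 0.00021), with tight and separate groups, and Tgfb2 changed by 3.14. Among the proteins that store latent TGF-β in the matrix, Ltbp1 and Ltbp3 changed by 1.95 and 1.95 ± 0.26.

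The members called lower were receptors and inhibitors for the most part. Eng, the endothelial co-receptor endoglin, measured 606, 613 and 458 CPM in F-HSC, against 1748, 1058 and 888 CPM in Q-HSC (-1.14 ± 0.28), and Ltbp4, Smad7, Tgfbr3, Inhbb and Acvr2a changed by -1.04, -0.51, -0.70, -0.88 and -0.87. Endoglin moved with the endothelial marker sum. Each of these 6 calls ended without F-HSC.3 (adjusted p from 0.050 for Eng to 0.11 for Inhbb). All but that of Eng ended without Q-HSC.1 too, where Eng changed by -0.75, and all but those of Eng and Inhbb without F-HSC.1. Those of Smad7, Inhbb and Acvr2a also ended without Q-HSC.2, those of Smad7 and Inhbb without Q-HSC.3, and that of Inhbb without F-HSC.2.

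Integrins and matrix receptors included 11 genes that rose and 2 that fell among 22 tested (median 0.86). Sdc1, the epithelial and hepatocyte syndecan, measured 110, 109.8 and 138 CPM in F-HSC, against 14.9, 40.7 and 17.7 CPM in Q-HSC (2.29 ± 0.36), and Sdc2, the fibroblast syndecan, 54.4, 65.8 and 74.4 CPM in F-HSC, against 28.8, 33.3 and 25.2 CPM in Q-HSC (1.16 ± 0.20). Itga11, a collagen receptor of fibroblasts, was at 4.72, 3.201 and 4.07 CPM in F-HSC, against 0.8804, 0 and 0.224 CPM in Q-HSC (3.35 ± 0.68), where 2 of 3 Q-HSC libraries lay below the detection floor and the change was 5.07 without Q-HSC.1. Itga7, a laminin receptor of muscle, changed by 2.21 ± 0.41. Itgb3 (-1.13 ± 0.28) and Itga9 (-0.83 ± 0.22) were called lower, and both calls ended without F-HSC.3 (adjusted p = 0.053 and 0.074), that of Itga9 also without Q-HSC.1 (0.059) or Q-HSC.3 (0.056).

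Of 12 IGF genes, 3 rose and 1 fell, with a median of 0.88, a share called close to the 32.3% of all genes. Igf2r, the lysosomal sorting receptor that also clears IGF2, measured 347, 198 and 304 CPM in F-HSC, against 58.9, 61.98 and 62.8 CPM in Q-HSC (2.21 ± 0.21, adjusted p = 0.00029). Q-HSC libraries were nearly identical for this gene. Igfbp1, a binding protein secreted by hepatocytes, was at 156, 210.1 and 372 CPM in F-HSC, against 27.9, 16.1 and 8.05 CPM in Q-HSC (3.82 ± 0.46, adjusted p = 0.0007). Igfbp5 changed by 1.05 ± 0.30, a call that ended without F-HSC.3 or Q-HSC.3 (adjusted p = 0.067 to 0.095) and with the covariates (0.44, adjusted p = 0.15), and Igf1r by -0.59 ± 0.19, a call that ended when any 1 library but Q-HSC.3 was left out (adjusted p = 0.065 to 0.16).

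Markers of mesenchymal cells other than stellate cells were higher as well. Of 12 portal fibroblast markers, 9 rose and 1 fell, with a median of 1.97. Eln, elastin, measured 135, 101 and 128 CPM in F-HSC, against 19.95, 10.1 and 5.25 CPM in Q-HSC (adjusted p = 0.0012), Pi16, a peptidase inhibitor of adventitial fibroblasts, 16.4, 87.99 and 101 CPM in F-HSC, against 5.38, 4.24 and 3.02 CPM in Q-HSC (4.01 ± 0.63), and Cd34, of fibroblasts and endothelium, 64.4, 49.5 and 66.3 CPM in F-HSC, against 21.3, 24.03 and 14.98 CPM in Q-HSC (1.58 ± 0.22). The exception was Thy1, which marks portal fibroblasts and T cells, at 10.2, 31.4 and 18.7 CPM in F-HSC, against 99.97, 83.4 and 27.7 CPM in Q-HSC (-1.81 ± 0.48), and its call ended without F-HSC.1, F-HSC.3, Q-HSC.1 or Q-HSC.2 (adjusted p = 0.05 to 0.064). Of 11 mesothelial markers, 6 rose and 0 fell (median 1.41). Wt1, the Wilms tumour factor of mesothelium, stood at 16.2, 15.8 and 23.7 CPM in F-HSC, against 0.587, 1.196 and 0.894 CPM in Q-HSC (4.37 ± 0.47, adjusted p = 0.00046). Krt18, a keratin that hepatocytes and bile ducts share, was at 139, 189 and 378 CPM in F-HSC, against 17.9, 38.1 and 18.4 CPM in Q-HSC (3.25 ± 0.55). With the covariates, 2 mesothelial markers were called higher and the median was 0.63.

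Of 18 Kupffer cell and macrophage markers, 0 rose and 5 fell, with a median of -0.64, beside 17.6% of all genes called lower. With the covariates, 1 of which was made from this list, 3 were called higher and 2 lower, with a median of 0.38. The falls were Cd163, given above, and Clec4f, Timd4, Folr2 and Mertk. Clec4f, the glycan receptor that defines Kupffer cells, measured 1115, 761 and 646 CPM in F-HSC, against 2185, 2713 and 5767 CPM in Q-HSC (-2.08 ± 0.64, adjusted p = 0.031), and Timd4, the phosphatidylserine receptor of resident macrophages, 41.2, 46.1 and 70.3 CPM in F-HSC, against 159, 161 and 368 CPM in Q-HSC (-2.13 ± 0.61). Folr2, a folate receptor of resident macrophages, changed by -1.64 ± 0.48 and lost its call without F-HSC.2, F-HSC.3 or Q-HSC.3 (adjusted p = 0.077 to 0.1). Clec4f and Timd4 separated the groups, yet their calls ended without Q-HSC.3, the library with the most macrophage RNA (adjusted p = 0.12 and 0.087), or without F-HSC.2 (0.081 and 0.065). The call of Clec4f also ended without F-HSC.3 (0.11), and that of Timd4 without F-HSC.1 (0.063).

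The general macrophage genes fixed for naming were not called without covariates. Emr1 (Adgre1, the F4/80 antigen) measured 634, 319.8 and 254 CPM in F-HSC, against 203, 267 and 574 CPM in Q-HSC (0.21 ± 0.55, adjusted p = 0.79), Csf1r, the receptor of macrophage colony-stimulating factor, 1371, 802 and 668 CPM in F-HSC, against 756, 1146 and 2469 CPM in Q-HSC (-0.62 ± 0.53, adjusted p = 0.39), and C1qa, a complement component, 1402, 492 and 537 CPM in F-HSC, against 851, 984 and 1985 CPM in Q-HSC (-0.65 ± 0.53, adjusted p = 0.37). Cd5l, a secreted scavenger protein of Kupffer cells, was at 3916, 1429 and 1504 CPM in F-HSC, against 1336, 2375 and 5317 CPM in Q-HSC (-0.40 ± 0.64, adjusted p = 0.66). The groups overlapped for all 4, with F-HSC.1 and Q-HSC.3 at the top, and the direction of each depended on the setting. With the covariates Emr1 was called higher at 1.37 (adjusted p = 0.0031) and Cd5l at 0.89 (adjusted p = 0.013), whereas C1qa was called lower with only libraries 2 and 3 (-1.47, adjusted p = 0.04).

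Monocyte and scar-associated macrophage genes included 12 genes that rose and 1 that fell among 20 tested (median 2.46), or 1.34 without F-HSC.1. Trem2, the lipid receptor of these macrophages, measured 453, 53.05 and 84.3 CPM in F-HSC, against 6.16, 15.01 and 29.4 CPM in Q-HSC (3.55 ± 0.80, adjusted p = 0.0083, and 2.08 without F-HSC.1). Cd63, a tetraspanin of lysosomes, was at 534, 199.7 and 280.3 CPM in F-HSC, against 33.3, 20.1 and 10.1 CPM in Q-HSC (3.995 ± 0.49, adjusted p = 0.00071), and Spp1, osteopontin, which bile duct cells also make, at 1539, 629 and 1840.2 CPM in F-HSC, against 68.5, 297 and 135 CPM in Q-HSC (3.002 ± 0.73, adjusted p = 0.011). Lyz2, lysozyme of myeloid cells, was at 4144, 1111 and 1391 CPM in F-HSC, against 351, 656 and 1314 CPM in Q-HSC (1.52 ± 0.54, adjusted p = 0.053) and overlapped, Q-HSC.3 lying above F-HSC.2. It was called without F-HSC.2 or Q-HSC.3 (adjusted p = 0.025 to 0.031) and with the covariates (2.14, adjusted p = 0.016). Plac8 was the member called lower (-1.13 ± 0.34), and its call ended when any 1 library but Q-HSC.1 was left out (adjusted p = 0.071 to 0.14).

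Dendritic cell genes fell for 10 of 16, none rose, and the median was -1.38. Clec9a, a receptor for dead cells on cross-presenting dendritic cells, measured 13.2, 17.7 and 10.4 CPM in F-HSC, against 78.1, 103 and 115 CPM in Q-HSC (-2.84 ± 0.25, adjusted p = 0.00021), and Xcr1, a chemokine receptor of the same subset, 1.07, 2.56 and 1.43 CPM in F-HSC, against 8.804, 25.1 and 11.2 CPM in Q-HSC (-3.15 ± 0.55). Batf3, the factor that subset needs, was at 4.34, 4.57 and 5.82 CPM in F-HSC, against 17.2, 27.3 and 32.5 CPM in Q-HSC (-2.39 ± 0.35), and Siglech, of plasmacytoid dendritic cells, at 9.45, 21.2 and 27.5 CPM in F-HSC, against 79.3, 168 and 82.1 CPM in Q-HSC (-2.51 ± 0.48). In all 4 every F-HSC library lay below every Q-HSC library, as in 25.3% of all genes, but low adjusted p was how they were chosen. In the endothelial fraction Clec9a measured 21.3, 23.6 and 21.8 CPM in F-SEC, against 91.6, 155 and 110.1 CPM in Q-SEC (-2.42 ± 0.24, adjusted p = 0.00028). Xcr1, Batf3 and Siglech reached at most 0.957, 4.74 and 1.96 CPM in the endothelial libraries. The cell source of Clec9a was not tested. MHC class II presentation genes gave 1 call of 12, H2-Ob (-1.16 ± 0.37), which ended without F-HSC.1, F-HSC.2, F-HSC.3, Q-HSC.2 or Q-HSC.3 (adjusted p = 0.055 to 0.17), with a median of -0.65.

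Hepatocyte genes included 12 genes that rose and 2 that fell among 32 tested (median 0.94). Alb, albumin, measured 7062, 11685 and 15862 CPM in F-HSC, against 2046, 3271 and 1199.9 CPM in Q-HSC (2.41 ± 0.47, adjusted p = 0.0043), and Ahsg, fetuin A, 1195, 2387 and 4041 CPM in F-HSC, against 219, 564 and 192 CPM in Q-HSC (2.97 ± 0.63). Cyp1a2, a pericentral cytochrome P450, was at 127, 453 and 498 CPM in F-HSC, against 44.8, 43.3 and 17.6 CPM in Q-HSC (3.35 ± 0.58, adjusted p = 0.0027). Apoa1 and Ttr, a lipoprotein and a thyroxine carrier, changed by 2.47 ± 0.56 and 2.06 ± 0.43. Each of these was higher in every F-HSC library. Cyp2e1, the P450 that converts CCl4 to its toxic radical, was at 159.6, 963 and 997 CPM in F-HSC, against 279, 324 and 154 CPM in Q-HSC (1.49 ± 0.64, adjusted p = 0.097) and overlapped, F-HSC.1 being near the bottom of all 6. Without F-HSC.1 it was called (adjusted p = 0.013).

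Against that direction, Pck1, the gluconeogenic enzyme PEPCK, measured 52.2, 22.1 and 24.5 CPM in F-HSC, against 206, 322 and 178 CPM in Q-HSC (-2.83 ± 0.63, adjusted p = 0.0078). Mup3 was at 58.4, 17.7 and 36.6 CPM in F-HSC, against 130.3, 459 and 157 CPM in Q-HSC (-2.72 ± 0.77), a call that ended without F-HSC.2, F-HSC.3 or Q-HSC.2 (adjusted p = 0.071 to 0.09). With hepatocyte and macrophage levels as covariates the median of the list was -0.01, a covariate being made from this very list, and Pck1 stood at -3.33 (adjusted p = 0.007). Of 10 bile duct markers 2 were called (20%, beside 32.3% of all genes), Spp1 and Cldn4 (2.99 ± 0.88). The call of Cldn4 ended without F-HSC.2, F-HSC.3, Q-HSC.1 or Q-HSC.3 (adjusted p = 0.054 to 0.088).

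Genes of the sinusoidal endothelium fell for 20 of 26 and rose for 1, with a median of -1.47. Stab2, the hyaluronan scavenger receptor, measured 735, 511 and 365 CPM in F-HSC, against 2314, 1835 and 1714 CPM in Q-HSC (-1.86 ± 0.27, adjusted p = 0.0013). F8, coagulation factor VIII, was at 104, 121 and 55.4 CPM in F-HSC, against 750.2, 523 and 511 CPM in Q-HSC (-2.67 ± 0.33, adjusted p = 0.0007), and Kdr, the VEGF receptor, at 459, 427 and 228 CPM in F-HSC, against 1083, 1223 and 1155 CPM in Q-HSC (-1.64 ± 0.27). F-HSC.3 was the lowest library in all 3. Pecam1, the adhesion molecule CD31, changed by -0.87 ± 0.24 (adjusted p = 0.019) and lost its call without F-HSC.1, F-HSC.3 or Q-HSC.1 (adjusted p = 0.057 to 0.093). The fall in this fraction ran beside a fall of the same genes in the endothelial fraction itself, where Stab2 changed by -1.59 ± 0.27, F8 by -2.48 ± 0.32 and Kdr by -1.57 ± 0.27, in other libraries. Wnt9b, a ligand of central vein endothelium, was the exception, at 29.1, 169 and 141 CPM in F-HSC, against 25.6, 23.3 and 8.497 CPM in Q-HSC (2.56 ± 0.61), though not called with the covariates (adjusted p = 0.073).

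T and NK cell markers fell for 8 of 21 with 0 higher and a median of -2.33, beside 17.6% of all genes called lower. Klrk1, the activating receptor NKG2D, measured 5.79, 17.1 and 6.703 CPM in F-HSC, against 54.6, 70.6 and 54.00 CPM in Q-HSC (-2.60 ± 0.55, adjusted p = 0.0064), and Klrb1c, the NK1.1 antigen, 0.838, 7.500 and 2.42 CPM in F-HSC, against 41.5, 35.9 and 10.2 CPM in Q-HSC (-3.03 ± 0.72). For both genes, chosen by low adjusted p, every F-HSC library lay below every Q-HSC library, while the sum over the list overlapped. With only libraries 2 and 3 the number called lower was 2 and the median -1.14. Fcrla was the B cell gene called, of 11 with a median of -0.09 (-1.42 ± 0.40), and Retnlg the neutrophil gene, of 12 (3.48 ± 0.98). Of 4 erythroid genes 3 were called lower, the heme synthesis enzyme Alas2 (-1.28 ± 0.33) and the paralogs Hba-a1 and Hba-a2, which shared 1 set of values (-2.26 ± 0.75) and cannot be told apart. The calls of Fcrla, Retnlg, Alas2 and the globins each ended without Q-HSC.2 (adjusted p = 0.12, 0.051, 0.071 and 0.074). They also ended without F-HSC.1 (Fcrla and the globins), F-HSC.2 (all but Retnlg), F-HSC.3 (Retnlg and the globins), Q-HSC.1 (Retnlg and the globins) or Q-HSC.3 (Retnlg). Ptprc, the leukocyte antigen CD45, was at 177, 233 and 138 CPM in F-HSC, against 346, 527 and 526 CPM in Q-HSC (-1.35 ± 0.49, adjusted p = 0.056), without overlap.

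Interferon-stimulated genes fell for 12 of 28, none rose, and the median was -0.71, beside 17.6% of all genes called lower. Oas2, which makes the activator of RNase L, measured 69.4, 35.1 and 30.2 CPM in F-HSC, against 143, 296 and 375 CPM in Q-HSC (-2.59 ± 0.43, adjusted p = 0.0023), and Mx1, an antiviral GTPase, 15.2, 8.87 and 8.35 CPM in F-HSC, against 30.2, 47.4 and 62.6 CPM in Q-HSC (-2.10 ± 0.36). Mx2, its relative, was at 5.79, 8.05 and 4.18 CPM in F-HSC, against 13.1, 18.8 and 18.9 CPM in Q-HSC (-1.49 ± 0.25), and Stat2, the transducer of type I interferon, at 99.5, 77.2 and 66.5 CPM in F-HSC, against 141, 246 and 236 CPM in Q-HSC (-1.36 ± 0.23). The groups were separate for all 4, as in 25.3% of all genes in that direction, but low adjusted p was how the 4 were chosen. Q-HSC.1 was the lowest Q-HSC library in each.

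Immediate early and stress genes rose for 7 of 25, none fell, and the median was 0.52, beside 14.7% of all genes called higher and 32.3% called. Cell isolation can induce these genes. Atf3, a stress factor of the AP-1 superfamily, measured 185, 290.5 and 272 CPM in F-HSC, against 20.4, 24.03 and 19.7 CPM in Q-HSC (3.54 ± 0.31, adjusted p = 0.00021), and Egr2 17.8, 26.1 and 27.7 CPM in F-HSC, against 3.52, 3.37 and 2.91 CPM in Q-HSC (2.86 ± 0.40). Fos, an AP-1 subunit, was at 553, 1174 and 951 CPM in F-HSC, against 528, 403 and 459.8 CPM in Q-HSC (0.95 ± 0.28), and its call ended without F-HSC.2, F-HSC.3, Q-HSC.2 or Q-HSC.3 (adjusted p = 0.062 to 0.077). Myc changed by 0.79 ± 0.21, a call that ended without F-HSC.3 or Q-HSC.2 (adjusted p = 0.054 to 0.064).

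Chemokines and their receptors included 10 genes that rose and 4 that fell among 24 tested (median 1.09). Among ligands, Cxcl1, a neutrophil attractant, measured 34.5, 114 and 145 CPM in F-HSC, against 7.53, 5.98 and 4.92 CPM in Q-HSC (3.98 ± 0.47, adjusted p = 0.0007), Ccl9 263, 73.8 and 113 CPM in F-HSC, against 18.6, 14.9 and 25.5 CPM in Q-HSC (2.93 ± 0.45), and Cx3cl1, fractalkine, 16.5, 15.6 and 17.7 CPM in F-HSC, against 4.597, 1.52 and 1.23 CPM in Q-HSC (2.74 ± 0.40). The neutrophil attractants Cxcl2 and Cxcl5 changed by 3.67 and 6.84. Among receptors, Cxcr6 and Cxcr3 of T and NK cells changed by -2.89 ± 0.76 and -2.12 ± 0.61, beside the fall of lymphoid markers. Both of those calls ended without F-HSC.3 (adjusted p = 0.067 and 0.086), that of Cxcr3 also without F-HSC.1 (0.062) or Q-HSC.2 (0.094), and the change of Cxcr6 was -4.43 without F-HSC.2. Darc (Ackr1), a decoy receptor, changed by -0.97 ± 0.26, a call that ended without F-HSC.3, Q-HSC.1 or Q-HSC.2 (adjusted p = 0.059 to 0.083).

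Complement genes were called higher for 7 of 19 and lower for 3, with a median of 0.24. The share called was 52.6%, beside 32.3% of all genes. C1s, a protease of the classical pathway, measured 138, 207 and 247 CPM in F-HSC, against 57.3, 52.2 and 21.1 CPM in Q-HSC (2.18 ± 0.39), and Serping1, its inhibitor, 311, 433 and 375 CPM in F-HSC, against 167, 147 and 70.4 CPM in Q-HSC (1.54 ± 0.37). C6, of the membrane attack complex, fell to 83.2, 69.4 and 45.4 CPM in F-HSC, against 231, 317 and 669 CPM in Q-HSC (-2.62 ± 0.43, adjusted p = 0.0021), and Cd55, a membrane regulator, to 76.7, 108 and 71.2 CPM in F-HSC, against 336, 241 and 217 CPM in Q-HSC (-1.63 ± 0.21). C6 peaked in Q-HSC.3, the library richest in Kupffer markers. Properdin, Cfp, changed by -1.37 ± 0.48, a call that ended without F-HSC.2, F-HSC.3, Q-HSC.2 or Q-HSC.3 (adjusted p = 0.066 to 0.22) and with the covariates (-0.36, adjusted p = 0.23).

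Metabolic lists moved mostly upward. Sterol and fatty acid synthesis genes rose for 14 of 25 and none fell (median 0.80). Scd1, stearoyl-CoA desaturase, measured 591, 771 and 432 CPM in F-HSC, against 258, 228 and 199 CPM in Q-HSC (1.39 ± 0.26, adjusted p = 0.0033), and Mvk, mevalonate kinase, 15.2, 18.8 and 24.8 CPM in F-HSC, against 8.804, 7.72 and 9.39 CPM in Q-HSC (1.18 ± 0.23). Acaca, acetyl-CoA carboxylase, and Dhcr7, of the last steps to cholesterol, changed by 0.80 ± 0.17 and 0.82 ± 0.17. With the covariates 7 were called, with a median of 0.46.

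Glycolysis genes rose for 9 of 16 (median 0.82), none fell, and 9 were called with the covariates. Ldha, lactate dehydrogenase A, measured 854, 609 and 1068 CPM in F-HSC, against 282, 291 and 304 CPM in Q-HSC (1.53 ± 0.26, adjusted p = 0.0023), Tpi1, triosephosphate isomerase, 372, 247 and 404 CPM in F-HSC, against 109.7, 101 and 114 CPM in Q-HSC (1.66 ± 0.22), and Pgk1, phosphoglycerate kinase, 383, 354 and 312 CPM in F-HSC, against 156, 122 and 134 CPM in Q-HSC (1.35 ± 0.23). The Q-HSC libraries lay within a narrow band for each. Oxidative phosphorylation genes rose by less, 10 of 25 with a median of 0.45 and none lower. Atp5b, the catalytic subunit of ATP synthase, measured 731, 743 and 831 CPM in F-HSC, against 443, 407 and 414 CPM in Q-HSC (0.87 ± 0.15), and Cyc1 and Uqcrc1 of complex III changed by 0.55 ± 0.12 and 0.59 ± 0.14.

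Lysosomal genes rose for 8 of 27, none fell, beside 14.7% of all genes called higher and 32.3% called, and the median was 0.42, or 0.06 without F-HSC.1, the library with the most scar-associated macrophage RNA. Ctsk, the collagen-degrading cathepsin K, measured 51.7, 25.4 and 26.7 CPM in F-HSC, against 4.500, 2.94 and 2.24 CPM in Q-HSC (3.41 ± 0.36, adjusted p = 0.00046). Npc1, which exports cholesterol from lysosomes, was at 278, 209 and 198 CPM in F-HSC, against 81.2, 105 and 111 CPM in Q-HSC (1.20 ± 0.20), and Gla, α-galactosidase, at 144, 31.7 and 43.2 CPM in F-HSC, against 15.4, 11.96 and 18.4 CPM in Q-HSC (2.26 ± 0.47, and 1.35 without F-HSC.1). Unfolded protein response and chaperone genes rose for 5 of 25 and none fell (median 0.33), a share near the 14.7% of all genes called higher. P4hb, a subunit of collagen prolyl hydroxylase, was at 997, 1663 and 1138 CPM in F-HSC, against 448, 466 and 489 CPM in Q-HSC (1.44 ± 0.25), and Fkbp10, a collagen chaperone, at 42.5, 17.7 and 45.6 CPM in F-HSC, against 9.78, 3.59 and 3.02 CPM in Q-HSC (2.68 ± 0.57). Kdelr3 and Creb3l1, of the secretory pathway, changed by 2.34 ± 0.56 and 1.30 ± 0.28.

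Proliferation genes gave 1 call of 33, beside 32.3% of all genes called, with a median of 0.42. Cdc20, an activator of the anaphase-promoting complex, was at 43.4, 24.6 and 62.9 CPM in F-HSC, against 12.6, 10.8 and 19.5 CPM in Q-HSC (1.61 ± 0.51), and its call ended without F-HSC.1, F-HSC.3, Q-HSC.1 or Q-HSC.2 (adjusted p = 0.053 to 0.12). Mki67, the Ki-67 antigen, stood at 171, 112 and 238 CPM in F-HSC, against 134, 188 and 249 CPM in Q-HSC (-0.13 ± 0.46, adjusted p = 0.85), and its groups overlapped.

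**Figure D3:**
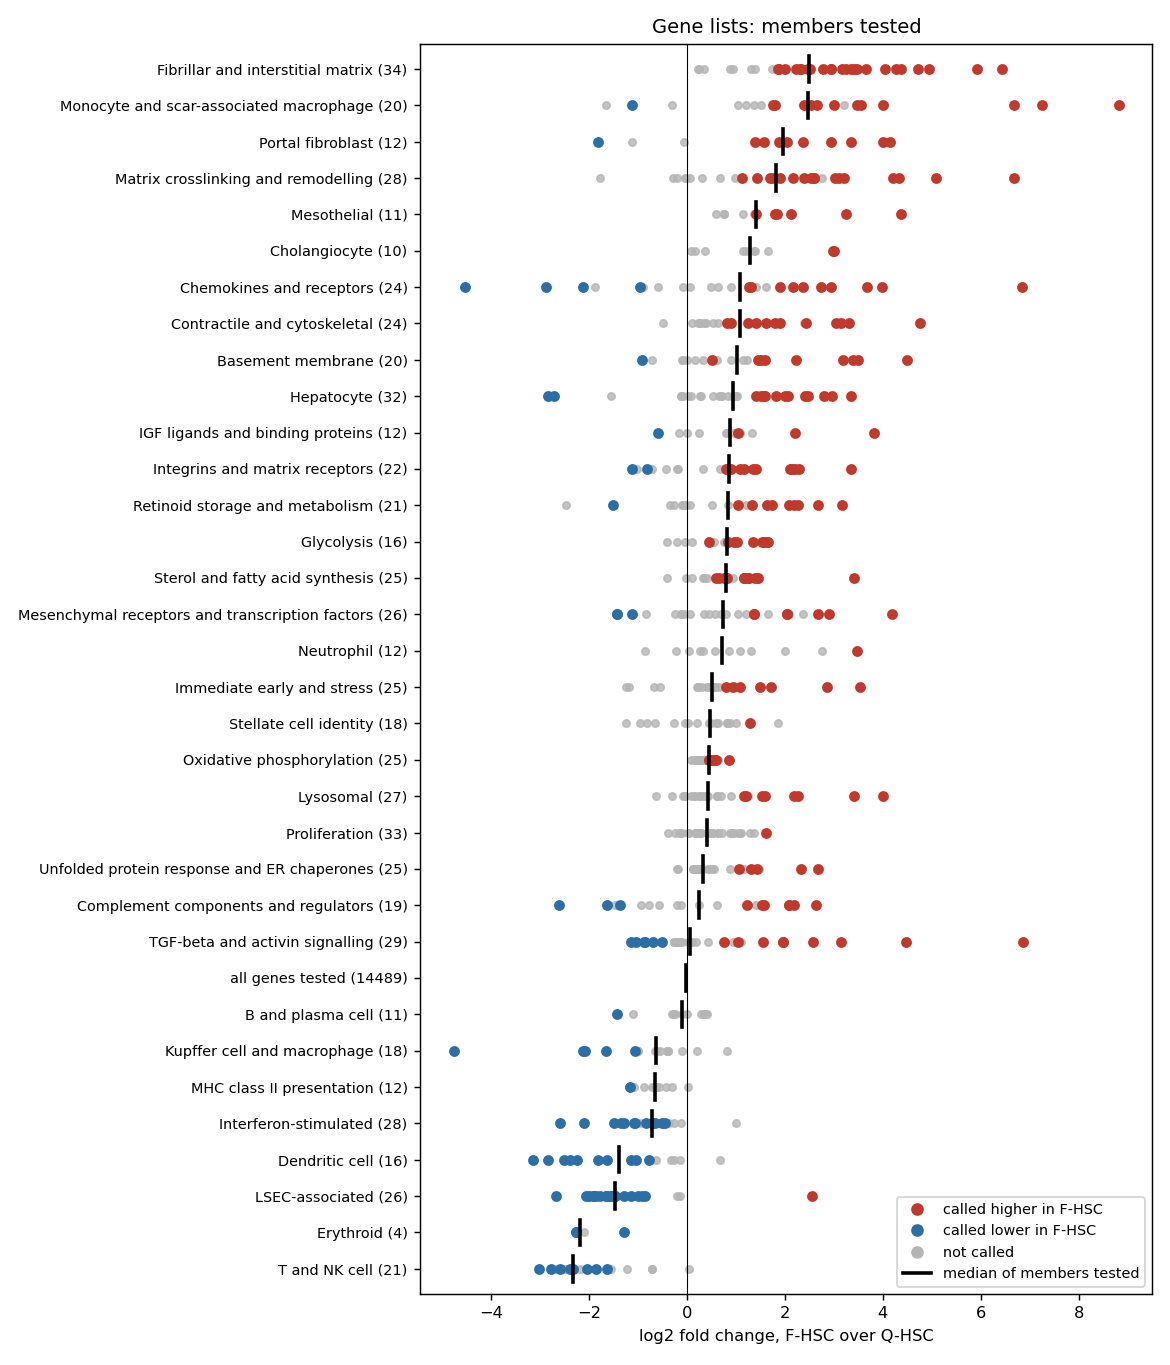
Log2 fold change (F-HSC over Q-HSC) of every tested member of 33 gene lists, ordered by median, with members called higher in red, called lower in blue and not called in grey, the number tested in brackets and the median as a bar. The medians run from 2.50 for fibrillar matrix to -2.33 for T and NK cells, beside -0.02 over all genes tested.

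Because the cell mixture differed between libraries, levels were also set against the marker list of 1 cell type within each library, as counts per 1000 counts of that list with the gene itself left out. These ratios were chosen after values had been seen and are a description without a test. A ratio shows unequal change of a gene and its list, not which of them changed. Per 1000 stellate identity counts, Col1a1 gave 1789, 338 and 1226 in F-HSC, against 17.4, 19.7 and 13.5 in Q-HSC, Acta2 90.1, 11.7 and 45.5 in F-HSC, against 1.902, 1.12 and 0.798 in Q-HSC, and Lox 28.97, 12.6 and 22.9 in F-HSC, against 0.486, 0.949 and 0.684 in Q-HSC. Q-HSC.1 no longer stood apart from the other 2 Q-HSC libraries on this scale. Pdgfrb gave 105, 73.6 and 88.2 in F-HSC, against 16.1, 19.7 and 18.7 in Q-HSC, Des 32.8, 14.03 and 21.1 in F-HSC, against 7.303, 11.3 and 12.3 in Q-HSC and Reln 371, 445 and 578 in F-HSC, against 337, 279 and 256 in Q-HSC, without overlap, whereas Lrat gave 103, 83.9 and 70.4 in F-HSC, against 88.7, 53.2 and 102 in Q-HSC and overlapped.

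Per 1000 Kupffer and macrophage counts, Gpnmb gave 427, 65.5 and 136 in F-HSC, against 0.627, 0.354 and 0.231 in Q-HSC, Trem2 29.00, 7.64 and 12.2 in F-HSC, against 0.607, 1.11 and 1.03 in Q-HSC and Lyz2 265, 160 and 202 in F-HSC, against 34.6, 48.6 and 45.97 in Q-HSC. Clec4f gave 76.8, 123 and 104 in F-HSC, against 274, 251 and 253 in Q-HSC and Cd163 4.12, 2.24 and 1.92 in F-HSC, against 31.6, 42.8 and 62.1 in Q-HSC. Folr2 gave 13.7, 12.8 and 15.1 in F-HSC, against 26.2, 25.3 and 23.7 in Q-HSC. All of these separated the groups, and the Q-HSC libraries, whose macrophage sums differed from 10144 to 28580 CPM, were close to each other for Clec4f and Folr2. C1qa, at 98.6, 76.3 and 84.7 in F-HSC, against 91.5, 78.6 and 74.6 in Q-HSC, overlapped.

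Per 1000 hepatocyte counts, Pck1 gave 2.59, 0.643 and 0.504 in F-HSC, against 27.5, 19.96 and 24.97 in Q-HSC, Mup3 2.902, 0.516 and 0.753 in F-HSC, against 17.2, 28.7 and 21.9 in Q-HSC and Slco1a1 0.1698, 0.0186 and 0.0542 in F-HSC, against 2.68, 1.62 and 1.21 in Q-HSC. Afp gave 1.66, 1.36 and 3.06 in F-HSC, against 0.153, 0.0264 and 0.0764 in Q-HSC, and Igfbp1 7.72, 6.103 and 7.64 in F-HSC, against 3.62, 0.978 and 1.100 in Q-HSC. These separated the groups in both directions. Cyp2e1, at 7.96, 28.8 and 20.9 in F-HSC, against 37.6, 20.1 and 21.5 in Q-HSC, overlapped. Elovl3 gave 0.0528, 0.00531 and 0.00226 in F-HSC, against 7.297, 0.859 and 1.04 in Q-HSC, the widest gap of the 10 hepatocyte ratios.

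**Figure D4:**
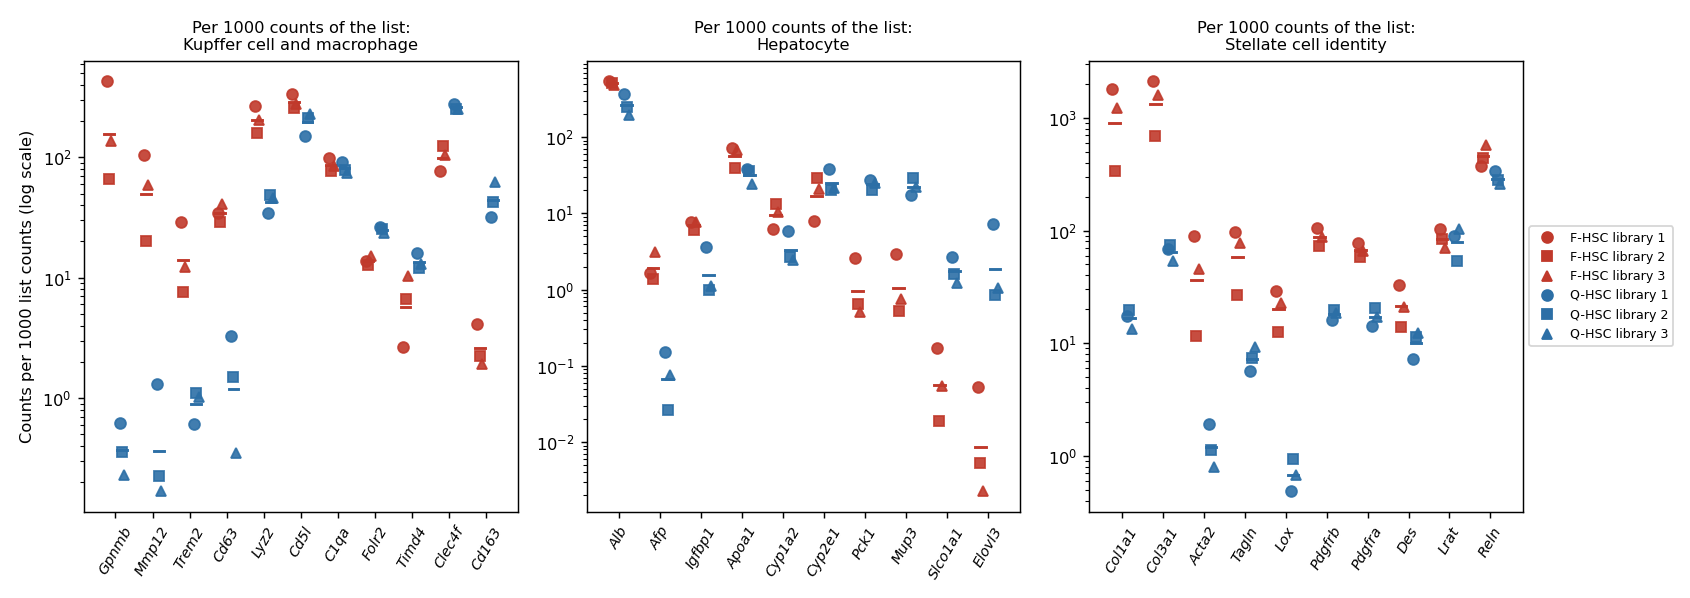
Counts of selected genes per 1000 counts of the Kupffer cell and macrophage list (left), the hepatocyte list (middle) and the stellate identity list (right), on log scales, in each F-HSC library (red) and Q-HSC library (blue), with geometric means as bars. Clec4f lay between 76.8 and 123 in F-HSC and between 251 and 274 in Q-HSC, and Lrat, Cyp2e1 and C1qa overlapped between the groups.

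With the macrophage and hepatocyte levels as 2 covariates, 137 of the 161 named calls were kept and 24 lost, and 6 named genes not called before were called. Of all calls, 61.5% were kept. The covariates were means over list genes measured in the same libraries, so for members of those 2 lists the fit removes part of what it tests. Of all genes, 10.3% were called higher and 12.5% lower in that fit. Fibrillar matrix genes were called higher for 27 of 34 (median 3.04), crosslinking genes for 18 of 28 with 1 lower, and contractile genes for 13 of 24. Acta2 changed by 5.66 (adjusted p = 0.0076), Col1a1 by 6.43 (adjusted p = 0.0034) and Gpnmb by 9.54 (adjusted p = 0.002). Clec4f, at -0.74 (adjusted p = 0.13), and Timd4, at -0.94 (adjusted p = 0.28), were not called. Calls were also lost for Itga9 (-0.48) and Cldn4 (1.53), whose changes shrank by over 1.5 times, and for Pnpla3, Twist1, Eng, Ltbp4, Inhbb, Itgb3, Plac8, the globins, Cdc20, Myc, Fos and Pecam1. Beside the PDGF receptors, Emr1, Cd5l and Lyz2, Ptprc was gained (-1.64, adjusted p = 0.044). LSEC-associated genes were called lower for 16 of 26 and interferon-stimulated genes for 5 of 28, against 12 without covariates.

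**Figure D5:**
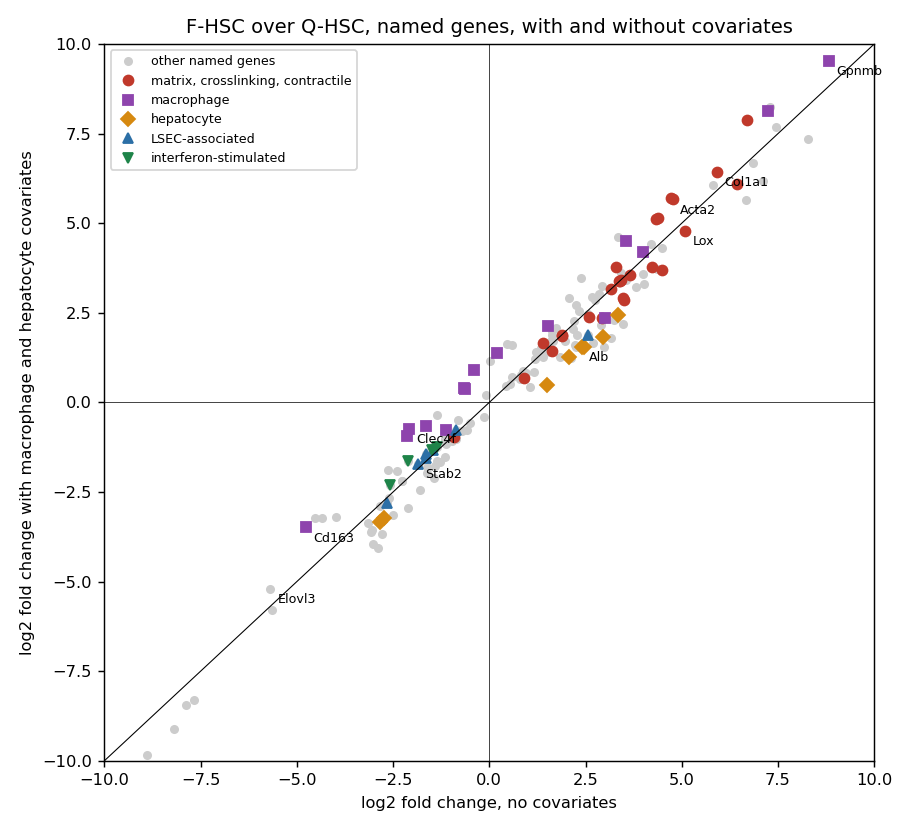
Log2 fold changes (F-HSC over Q-HSC) of the 175 named genes in the fit without covariates (horizontal) and with the macrophage and hepatocyte covariates (vertical), coloured by gene list, with the line of equality. Col1a1 lay at 5.92 and 6.43, Alb at 2.41 and 1.55, and Clec4f at -2.08 and -0.74.

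The response was also set against that of the endothelial fraction. The test of the change in HSC minus the change in SEC called 116 of 14489 genes (0.801%), 34 (0.235%) more positive and 82 (0.566%) more negative in the stellate fraction. The count was 743 without F-HSC.1 and 390 without Q-SEC.1, 204 without Q-HSC.1, and between 3 and 75 without any other single library. Of the named matrix genes, none was called in that test. Col1a1 changed by 8.29 ± 1.08 in the endothelial fraction, where it measured 4226, 2028 and 6833 CPM in F-SEC, against 28.8, 6.28 and 6.58 CPM in Q-SEC, and Acta2 changed by 6.32 ± 1.10. Among the named genes, 9 were called in that test.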

How the data were processed

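Bulk RNA-seq of 12 libraries, 3 per group, was analysed from 1 deposited table. Per the labels, the authors used bcl2fastq, TopHat2 2.0.13 and the mm10 build. The deposited counts are read counts per entry, and the counting tool and the use of strand are not given in the sources used here, so genes that overlap on opposite strands are uncertain. The deposited RPKM values, scaled by the authors to length and library total, and the lengths were not used for tests.

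Of 56826 lines, 33353 cDNA clone entries were left out and 23472 gene entries kept, with 24 symbols shown as dates restored and 3 left as they were. Titles number only libraries 2 and 3, so the unnumbered one became 1. Counts were fitted in R 4.3.3 with edgeR 4.0.16 (filterByExpr, TMM, robust quasi-likelihood, 1 coefficient per group, all 12 libraries, 8 residual degrees of freedom) and adjusted by Benjamini-Hochberg, with calls under 0.05. SE is the size of the log2 fold change over the square root of F. The members and the gene lists were chosen with earlier results of these data known. Named genes were the 12 largest rises and 12 largest falls (called, mean of at least 10 CPM, no overlap), up to 4 called members of each list by adjusted p, members called against their list, and fixed stellate, macrophage, hepatocyte and endothelial genes. In simulated counts 30% of 2-fold and 90% of 4-fold changes were recovered in F-HSC against Q-HSC (14235 genes run), and 3.23% of calls were false. The simulation changed far fewer genes than were called here and drew each gene independently, without shared shifts in cell mixture. Its rates therefore need not hold for this comparison. Libraries of a group were no duplicates (chi-square per degree of freedom 33.2 to 188). Alternatives were RLE scaling, other filters and thresholds, DESeq2 1.42.0, limma-voom 3.58.1, a test against a 2-fold change, the 6 HSC libraries alone, a replicate block, omission of each library, libraries 2 and 3 only, macrophage and hepatocyte covariates, and leaving out macrophage, MHC class II and hepatocyte genes.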

Additional observations from a re-analysis of the deposited data

Results flagged for a closer look

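For 9 named genes the change with CCl4 in the stellate cell fraction differed from that in the endothelial fraction by edgeR's test of the difference itself. They are given as log2 values, stellate fraction first, with adjusted p-values over 14489 genes. With each of the 12 libraries left out in turn, the differences kept their sign, and the calls held in 3 (Igfbp1 and Oas2) to 9 (Batf3) of the 12 omissions. All 9 calls ended without F-HSC.3, Q-SEC.2 or Q-SEC.3 (Batf3 reached an adjusted p of 0.075 at most, and Runx2 0.14). Among the alternatives set beforehand, limma-voom did not call Des, Runx2, Igfbp1, Thy1 or Atf3 (adjusted p = 0.058 to 0.095). The replicate block did not call Igfbp1 (0.051), and DESeq2 called all 9. With HSC and SEC libraries of a condition and number taken as pairs, all 9 were called (adjusted p = 0.0061 to 0.024). The omission of SEC libraries and this pairing were chosen after seeing the data. Stellate marker RNA was also higher in F-SEC than in F-HSC libraries.

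More negative in the stellate fraction were Des, at 1.29 ± 0.37 in HSC and 4.53 ± 0.42 in SEC (difference -3.25, adjusted p = 0.032), and Runx2, at -1.43 ± 0.46 in HSC and 2.15 ± 0.52 in SEC (-3.59, adjusted p = 0.043). Thy1 stood at -1.81 ± 0.48 in HSC and 2.64 ± 0.54 in SEC (-4.45, adjusted p = 0.03), and Plac8 at -1.13 ± 0.34 in HSC and 2.64 ± 0.36 in SEC (-3.77, adjusted p = 0.019). Batf3 stood at -2.39 ± 0.35 in HSC and 1.92 ± 0.41 in SEC (-4.31, adjusted p = 0.014), and Oas2 at -2.59 ± 0.43 in HSC and 0.99 ± 0.42 in SEC (-3.58, adjusted p = 0.032). For Runx2, Thy1, Plac8, Batf3 and Oas2 the fitted change was negative in HSC and positive in SEC, while Des was positive in both.

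More positive in the stellate fraction were Igf2r, at 2.21 ± 0.21 in HSC and 0.45 ± 0.21 in SEC (1.76, adjusted p = 0.032), Igfbp1, at 3.82 ± 0.46 in HSC and 0.33 ± 0.44 in SEC (3.49, adjusted p = 0.037), and Atf3, at 3.54 ± 0.31 in HSC and 1.29 ± 0.29 in SEC (2.25, adjusted p = 0.037). Igf2r measured 58.8, 75.7 and 88.6 CPM in F-SEC, against 51.03, 57.6 and 54.7 CPM in Q-SEC, and Igfbp1 9.75, 9.87 and 16.2 CPM in F-SEC, against 8.19, 10.9 and 9.28 CPM in Q-SEC. Batf3 measured 2.44, 4.74 and 2.17 CPM in F-SEC, against 1.17, 0.628 and 0.648 CPM in Q-SEC.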

How the results depend on the processing

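F-HSC against Q-HSC gave 4680 calls, 4664 with RLE scaling, 4572 with limma-voom and 5425 with DESeq2. An adjusted p under 0.01 gave 1985 (902 higher, 1083 lower), a test against a 2-fold change 503 (360 and 143), and the macrophage covariate 2899 (1266 and 1633). Only libraries 2 and 3 gave 3248 higher, and the 6 HSC libraries alone 1519 lower. Leaving out 1 library gave 2612 to 4365 calls, 1231 to 2389 of them higher and 1381 to 1999 lower, the fewest without F-HSC.3. For the difference between the fractions, 116 calls became 911 with DESeq2, 25 with limma-voom and 3 to 743 with 1 of the 12 libraries left out. Same-numbered libraries of the 2 groups did not deviate together (correlations -0.088, 0.244 and -0.284). Whether they share anything beyond the number is not given in the labels and was not tested. A replicate block gave 5486 calls, and 183 for the difference. Between the fractions, same-numbered libraries of a condition correlated at 0.427 to 0.530 in 5 of 6 pairs but at -0.011 in Q-HSC.3 and Q-SEC.3, and a block by these pairs, added after seeing the data, gave 969 calls for the difference. The cause of these shifts was not tested.

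Of 4264 values under alternatives 22 reversed, all of genes not called in the original fit. Leaving out 1 library gave ranges of -0.59 to 0.16 for Tgfb1, -0.33 to 1.28 for Lrat, -0.22 to 0.81 for Emr1, -0.93 to 0.028 for Csf1r, -0.98 to 0.33 for Cd5l and -0.43 to 0.14 for Mki67. Both covariates, the macrophage and the hepatocyte covariate gave 0.21, 0.10 and 0.18 for Tgfb1 and 0.89 (adjusted p = 0.013), 0.96 (0.011) and 0.15 for Cd5l. Both covariates and the macrophage covariate gave 0.37 and 0.48 for Csf1r and 0.40 and 0.33 for C1qa. Emr1 was at -0.49 with only libraries 2 and 3. At these depths simulated 2-fold changes were recovered in 30% of genes, in a setting with far fewer changed genes and no shift in cell mixture. The rate in these data was not measured, and a gene not called may still have changed by that much.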

Other observations

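The 45S ribosomal RNA precursor entry Rn45s took from 1.20% (F-HSC.1) to 12.6% (F-HSC.3) of gene counts in the F-HSC libraries and from 4.06% to 10.6% in the Q-HSC libraries. In a principal component analysis of the 6 stellate libraries the first component (65.2% of the variance) separated F-HSC from Q-HSC, and the second (17.1%) separated F-HSC.1 from the other F-HSC libraries.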
